A study of Mus musculus with 7 samples.

Results

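The transcripts described here were those of 10 genes that mark mast cells in mouse skin: the chymases Cma1 and Mcpt4, the tryptases Tpsb2 and Tpsab1, the carboxypeptidase Cpa3, the receptors Kit, Fcer1a, Ms4a2 and Mrgprb2, and the histamine-synthesising enzyme Hdc. They were chosen by name, as established mast cell genes, from the 55450 genes in the count table. Bulk RNA-seq had been performed on dorsal skin from 7 wild-type male C57BL/6 mice aged 24 months, with 1 library per mouse. The 3 treated mice (476, 477 and 478) received ABT-263 at 5 µM on the skin each day for 5 days, and the 4 control mice (480, 481, 482 and 483) received the vehicle, DMSO, for as long. ABT-263, also called navitoclax, is a small-molecule inhibitor of the survival proteins Bcl-2, Bcl-xL and Bcl-w and is used as a senolytic, an agent meant to remove senescent cells. Mice of both groups were clipped, depilated, cleansed with ethanol and dressed with an adhesive film, so that the controls were handled skin rather than untouched skin.

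Mast cells are resident immune cells that settle in connective tissue, in skin mainly in the dermis around vessels, nerves and hair follicles. They depend on stem cell factor, the ligand of the receptor Kit, and store histamine together with proteases bound to the proteoglycan serglycin in cytoplasmic granules. Cross-linking of IgE on the high-affinity receptor FcεRI, or engagement of Mrgprb2 by cationic peptides and drugs, releases the granule contents.

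The libraries held between 20344364 and 26824123 counts in the DMSO group and between 27325963 and 43562330 in the ABT-263 group, so every treated library was the larger. Levels are given as CPM, the counts of a gene relative to the total of its library, with that total scaled by the trimmed mean of M values (TMM). Skin was recognisable in every library: the summed level of 6 keratinocyte genes was 22680 to 51440 CPM in DMSO and 18220 to 51260 CPM in ABT-263 mice. Genes of skeletal muscle were also abundant, at 32510 to 65660 and 25080 to 33480 CPM. All 10 mast cell genes had counts in all 7 mice, with the exception of Tpsab1, which had none in DMSO mouse 483.

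Of the 9 mast cell genes with enough counts to be tested, 2, Hdc and Ms4a2, were higher in ABT-263 than in DMSO skin and none was lower, by edgeR's quasi-likelihood test with Benjamini-Hochberg adjustment over 17959 genes and a threshold of 0.05. Over all genes tested, 12.4% were called higher and 11.7% lower by that test, and the same shares apply to the other gene lists below. At an unadjusted p under 0.05, 4 of the mast cell genes were higher and 1, Mrgprb2, was lower, beside 20.6% and 19.5% of all genes tested. DESeq2's Wald test was run on the same counts with its outlier flagging and independent filtering off. It called 3 higher, with Cpa3 added, and 1, Mrgprb2, lower, and it called 17.2% of all genes higher and 16.1% lower. Only Hdc and Ms4a2 separated the groups completely, with every ABT-263 mouse above every DMSO mouse, and no member did so in the other direction. Such complete separation was seen upward in 18.7% and downward in 18.4% of all genes tested. Ms4a2 had enough counts to be tested through the ABT-263 libraries. All 3 of these reached the cutoff, against 1 of the 4 DMSO libraries, so its call and its separation are no independent support. The log2 fold change was positive for 8 of the 9 tested members, with a median of 0.97, where over all genes tested 50.1% were positive and the median was 0.0022. One animal weighed heavily on this median: without ABT-263 mouse 476 it was 0.32, with Hdc as the single member called, and without DMSO mouse 480 it was 1.50. Lists for several other cell types also shifted. Log2 fold changes were positive for 8 of 8 macrophage, 6 of 6 fibroblast, 6 of 6 endothelial and 5 of 6 adipocyte genes. Their medians were 1.389, 1.238, 1.227 and 0.804. Positive values were fewer for keratinocyte (2 of 6, median -0.091), melanocyte (0 of 6, -1.297) and skeletal muscle genes (0 of 6, -0.746). Whether the mast cell shift was separate from a change in tissue make-up was not tested. In bulk tissue, fewer cells of a type and less RNA per cell cannot be told apart, and this holds for all values below.

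**Figure D1:**
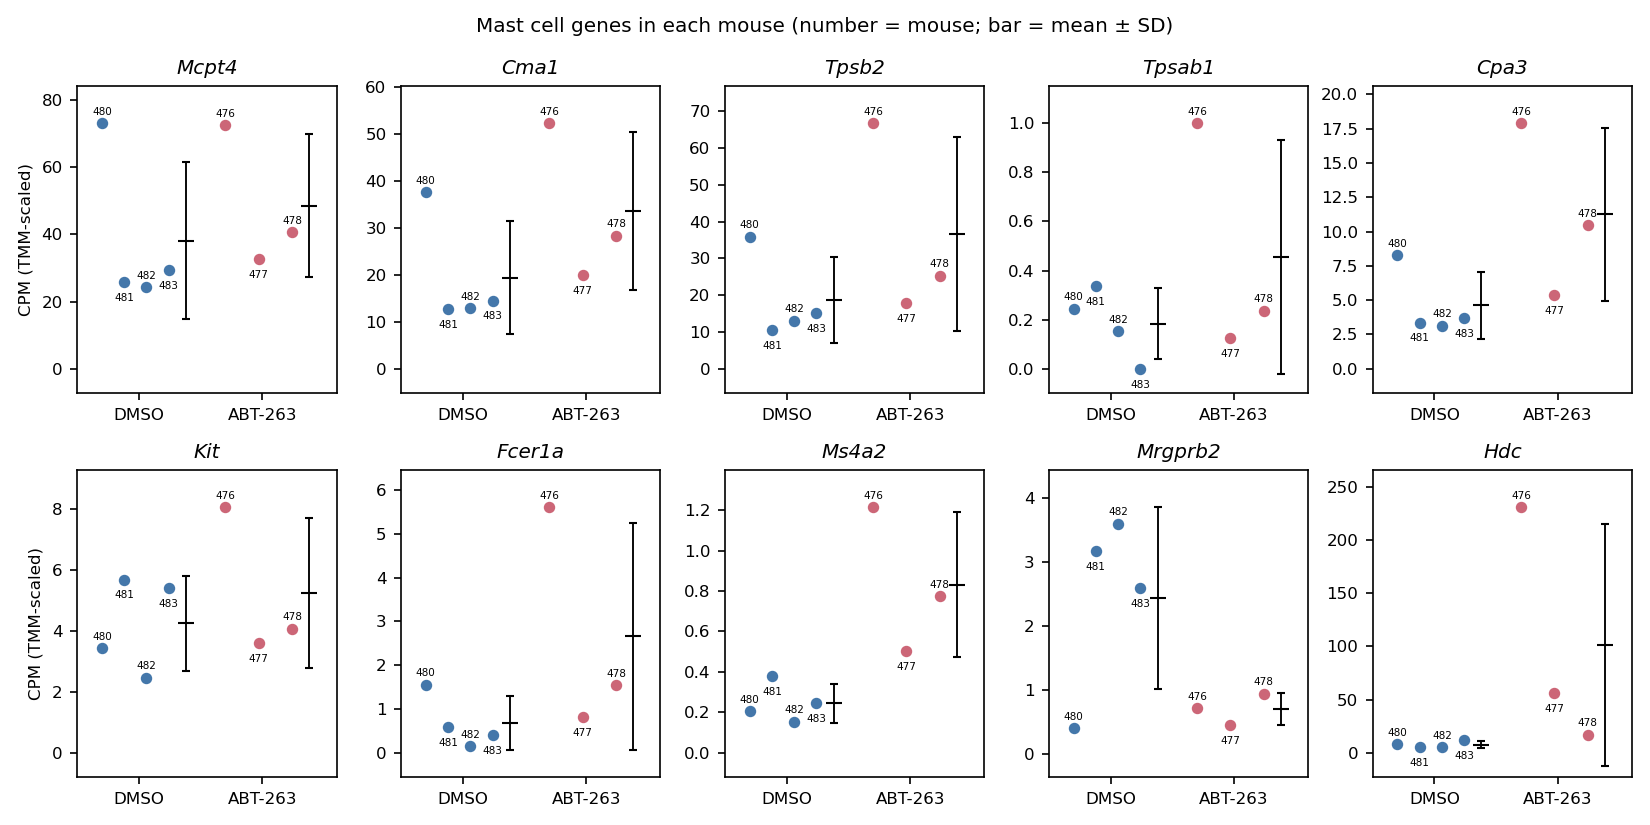
Level of each of the 10 mast cell genes in each mouse, in TMM-scaled CPM on a linear axis that differs between panels, with 1 point per mouse labelled by its number and bars for the group mean ± SD; DMSO n = 4 and ABT-263 n = 3. The groups overlap in every panel other than those of Hdc and Ms4a2, and mouse 480 stands above the other DMSO mice for Cma1, Mcpt4, Tpsb2 and Cpa3 and below them for Mrgprb2.

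In DMSO skin the granule proteases Mcpt4, Cma1 and Tpsb2 had the highest mean CPM of the members. In ABT-263 skin the mean of Hdc was higher, at 101 CPM against 48.5 CPM for Mcpt4. Mcpt4, the chymase stored by connective tissue mast cells, was at 73.08, 25.79, 24.18 and 29.37 CPM in DMSO mice 480 to 483 and at 72.47, 32.59 and 40.51 CPM in ABT-263 mice 476 to 478. Cma1, the other chymase of these cells, was at 37.48, 12.64, 12.93 and 14.5 CPM in DMSO mice and at 52.27, 19.86 and 28.33 CPM in ABT-263 mice. For both chymases a single animal in each group, 480 among the controls and 476 among the treated, lay well above the rest, and the groups overlapped because of mouse 480. The log2 fold change was 0.35 for Mcpt4 (SE 0.45, 95% interval -0.71 to 1.40, adjusted p = 0.603) and 0.79 for Cma1 (SE 0.48, 95% interval -0.33 to 1.90, adjusted p = 0.258). Neither chymase passed the test. Without mouse 480, Cma1 reached a log2 fold change of 1.32 and passed (edgeR adjusted p = 0.0351), and without mouse 476, Mcpt4 turned to -0.06.

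The chymases lie close together on chromosome 14 of GRCm38, Cma1 at 55941451 to 55944675 and Mcpt4 at 56059629 to 56062313, both on the minus strand. A part of their sequence is shared with related genes of the locus: 5.38% of the stretches of 50 bases in the longest Cma1 transcript also occurred in Gm48934, and 5.48% of those of Mcpt4 in Cma2 or Mcpt9. Their ratio within a library does not depend on scaling, and it was steady among control mice. The ratio of Cma1 to Mcpt4 counts was 0.513, 0.490, 0.535 and 0.494 in DMSO mice 480 to 483, and 0.721, 0.609 and 0.699 in ABT-263 mice 476 to 478. Every treated mouse was above every control, mouse 480 included. The mean log2 ratio was -0.98 ± 0.06 (SD, n = 4) in DMSO and -0.57 ± 0.13 (SD, n = 3) in ABT-263 mice, a difference of 0.41. By the exact two-sided permutation test over mice this gave p = 0.0286, which is the smallest p that 4 against 3 mice allow, and 0.114 after adjustment over the 4 gene pairs compared.

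**Figure D2:**
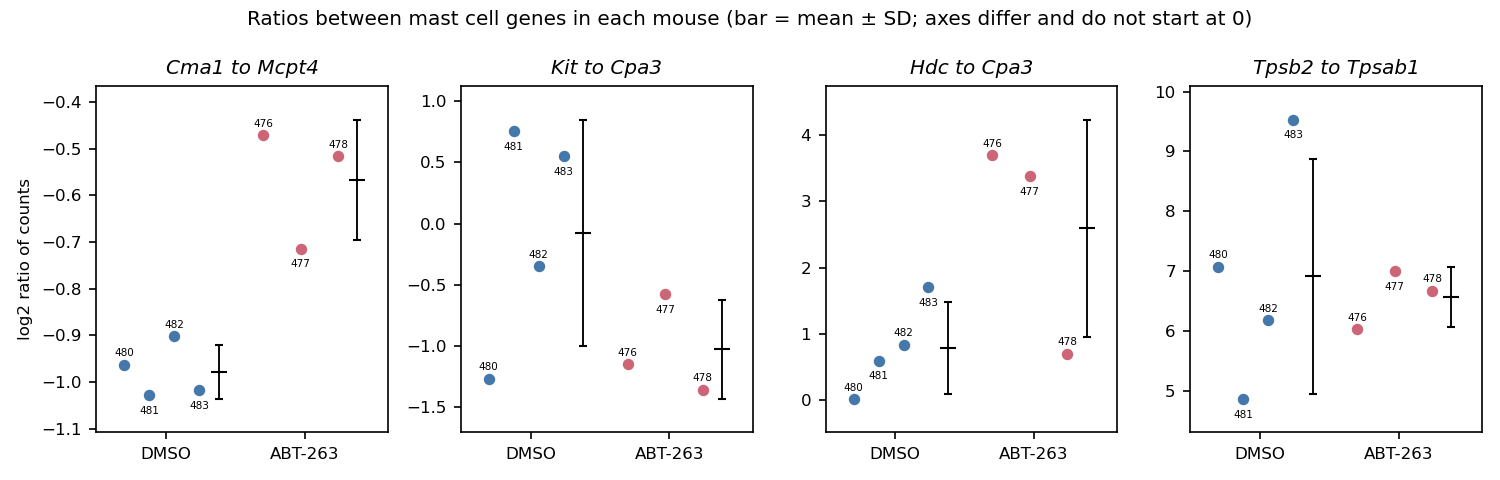
Log2 ratio of counts of 4 pairs of mast cell genes within each library (0.5 added to each count for Tpsb2 to Tpsab1), with 1 point per mouse labelled by its number and bars for the group mean ± SD; DMSO n = 4 and ABT-263 n = 3. The Cma1 to Mcpt4 ratio is the only one of the 4 in which all ABT-263 mice lie above all DMSO mice; the others overlap.

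Tpsb2, which encodes the tryptase mMCP-6, followed the chymases in mean CPM in DMSO skin. It was at 35.93, 10.49, 13.04 and 15.2 CPM in DMSO mice and at 66.79, 17.87 and 25.28 CPM in ABT-263 mice. Mice 480 and 476 were again the highest of their groups, and the log2 fold change of 0.97 (SE 0.56, 95% interval -0.33 to 2.27) did not pass the test (adjusted p = 0.234). Tpsab1, which encodes the tryptase mMCP-7 and carries a splice-site defect in C57BL/6 mice, was barely detected. Its counts were 6, 8, 3 and 0 in DMSO mice and 28, 5 and 11 in ABT-263 mice, or at most 1.00 CPM. It did not reach the count minimum for the fit, and a count of 0 in mouse 483 allows a level of up to 0.123 CPM. The exact permutation test over mice gave p = 0.486 for Tpsab1. The mean log2 ratio of Tpsb2 to Tpsab1 was 6.92 ± 1.96 (SD, n = 4) in DMSO and 6.58 ± 0.50 (SD, n = 3) in ABT-263 mice, with 0.5 added to each count. The tryptase genes neighbour each other on chromosome 17, Tpsab1 at 25343245 to 25345562 on the minus strand and Tpsb2 at 25366305 to 25369098 on the plus strand, and shared no stretch of 50 bases with each other or with another gene.

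Cpa3, the mast cell carboxypeptidase that is stored with the proteases and trims peptides such as snake toxins, was at 8.266, 3.371, 3.131 and 3.697 CPM in DMSO mice. In ABT-263 mice it was at 17.91, 5.369 and 10.46 CPM. All treated mice were above 3 of the 4 controls, and mouse 480 was above 477. The means were 4.62 ± 2.44 (SD, n = 4) and 11.2 ± 6.31 CPM (SD, n = 3). The log2 fold change of 1.28 (SE 0.48, 95% interval 0.18 to 2.38) did not pass the test (edgeR adjusted p = 0.0842; exact permutation p = 0.0857). It passed without mouse 480 (1.72, adjusted p = 0.0304), without mouse 477 (1.64, adjusted p = 0.0435) and by DESeq2 (1.29, adjusted p = 0.0309). Of the 7 edgeR fits that left out 1 mouse, only those 2 passed, and the highest adjusted p was 0.287, without mouse 476.

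Of the receptors, Kit had the log2 fold change nearest to 0. Kit is the receptor tyrosine kinase for stem cell factor and is also made by melanocytes. It was at 3.437, 5.688, 2.464 and 5.423 CPM in DMSO mice and at 8.08, 3.604 and 4.082 CPM in ABT-263 mice. The groups overlapped widely, and mouse 480, the control richest in chymases, was not high for Kit. The log2 fold change was 0.30 (SE 0.39, 95% interval -0.60 to 1.19, edgeR adjusted p = 0.602), and it was -0.14 without mouse 476. Markers of melanocytes were followed beside it: the summed level of Dct, Tyr, Tyrp1, Pmel, Mlana and Sox10 was 89.23 to 318.3 CPM in DMSO and 11.19 to 54.77 CPM in ABT-263 mice. All 6 of these had negative log2 fold changes, with a median of -1.30, but 5 did not pass. The one that passed was Dct, a melanin-synthesis enzyme (-2.44, edgeR adjusted p = 0.0492), a call that was lost when any 1 mouse was left out. The part of melanocytes in the Kit values was not tested. Kit and Cpa3 did not keep a fixed proportion: their ratio ranged from 0.416 to 1.69 among DMSO mice and from 0.390 to 0.671 among ABT-263 mice, and the difference in mean log2 ratio of -0.95 had an exact permutation p of 0.143.

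The high-affinity IgE receptor is built from an α chain that binds IgE (Fcer1a), a β chain that amplifies the signal (Ms4a2) and a γ chain shared with other Fc receptors (Fcer1g). Fcer1a was at 1.555, 0.5899, 0.154 and 0.4108 CPM in DMSO mice, from 38, 14, 3 and 10 counts. In ABT-263 mice it was at 5.613, 0.8066 and 1.547 CPM, from 157, 32 and 72 counts. The treated mice spanned a wide range with 476 on top, and control mouse 480 was above 477 and 478. The log2 fold change was 1.93 (SE 0.83, 95% interval 0.015 to 3.85, edgeR adjusted p = 0.122), and it was 0.79 without mouse 476.

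Ms4a2 was the tested member with the lowest CPM in DMSO skin. It had 5, 9, 3 and 6 counts in DMSO mice, or 0.2046, 0.3792, 0.154 and 0.2465 CPM, and 34, 20 and 36 counts in ABT-263 mice, or 1.216, 0.5041 and 0.7733 CPM. Each treated mouse was above each control, and mouse 480 was not high among the controls here. The DMSO mean was 0.246 ± 0.0965 CPM (SD, n = 4), the ABT-263 mean was 0.831 ± 0.359 CPM (SD, n = 3), and the fitted difference was 3.29-fold (log2 fold change 1.72, SE 0.49, 95% interval 0.59 to 2.84, edgeR adjusted p = 0.0384; exact permutation p = 0.0286). This call rests on few counts. Ms4a2 was kept by the filter through the ABT-263 libraries, all 3 of which reached the cutoff of 0.373 CPM against 1 of the 4 DMSO libraries, and a gene kept in this way had to differ. Leaving out 1 mouse at a time kept the call in 2 of 7 fits and lost it without 480, 482, 483, 476 or 478, with log2 fold changes from 1.36 to 2.01 and adjusted p from 0.0395 to 0.157. Fcer1g, which macrophages and other myeloid cells also express, had a log2 fold change of 1.45 (edgeR adjusted p = 0.0769). The 8 macrophage genes followed summed to 359.8 to 1084 CPM in DMSO and 1168 to 2890 CPM in ABT-263 mice. By edgeR 5 of them passed upward, beside 12.4% of all genes tested. That count was 3 without mouse 480, 481 or 482, 2 without 476 or 478, and 1 without 483.

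Because several of these genes are known targets of the GATA family of transcription factors, the 300 bases around the RefSeq start site, 250 before and 50 after it, were read for the letters AGATAA on either strand. A window in the RefSeq GRCm38.p6 table was matched for 8 of the 10 members. The motif was present in 3 of the 8, Cpa3, Fcer1a and Ms4a2, and in 11.2% of 32851 windows of all genes. The 150 bases just before the start are shown for these genes and for Hdc, which carried the greatest difference and no such motif in its window. All 4 are read 5′ to 3′ on the minus strand, with AGATAA or its reverse complement TTATCT in capitals.
Cpa3, chr3:20242182-20242331: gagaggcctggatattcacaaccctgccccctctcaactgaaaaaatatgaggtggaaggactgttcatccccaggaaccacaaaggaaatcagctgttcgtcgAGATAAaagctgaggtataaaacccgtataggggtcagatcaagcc
Fcer1a, chr1:173227230-173227379: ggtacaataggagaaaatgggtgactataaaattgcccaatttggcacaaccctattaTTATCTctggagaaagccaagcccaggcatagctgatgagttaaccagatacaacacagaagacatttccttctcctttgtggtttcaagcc
Ms4a2, chr19:11623720-11623869: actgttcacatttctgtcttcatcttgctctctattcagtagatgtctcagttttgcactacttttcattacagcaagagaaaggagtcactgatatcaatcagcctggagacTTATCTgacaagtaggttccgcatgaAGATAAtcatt
Hdc, chr2:126618679-126618828: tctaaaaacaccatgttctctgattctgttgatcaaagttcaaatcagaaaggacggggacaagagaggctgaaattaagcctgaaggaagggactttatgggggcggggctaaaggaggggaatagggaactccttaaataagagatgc
The motif stood 46 bases before the start in Cpa3, 92 before it in Fcer1a, and 224, 37 and 11 before it in Ms4a2. Whether the motif had a part in the treatment differences was not tested. The E-box letters CACATG, which the factor MITF can bind, were found on either strand in 1 of the 8 windows, that of Fcer1a, and in 14.2% of all windows. CACGTG was found in none of the 8 and in 7.15% of all.

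Mrgprb2, the receptor through which connective tissue mast cells respond to cationic peptides and several drugs, ran in the opposite direction to the other members. It was at 0.4092, 3.16, 3.593 and 2.588 CPM in DMSO mice 480 to 483, from 10, 75, 70 and 63 counts. In ABT-263 mice it was at 0.7151, 0.4537 and 0.9452 CPM, from 20, 18 and 44 counts. All treated mice were below 3 of the controls, while mouse 480 had the lowest value of all, although it was the richest control in chymases, Tpsb2, Cpa3 and Fcer1a. The means were 2.44 ± 1.41 (SD, n = 4) and 0.705 ± 0.246 CPM (SD, n = 3). The log2 fold change of -1.78 (SE 0.67, 95% interval -3.30 to -0.25) did not pass by edgeR (adjusted p = 0.0844; exact permutation p = 0.171), and it passed by DESeq2 (adjusted p = 0.0230) and, by edgeR, without mouse 480 (-2.13, adjusted p = 0.0121). It was the one tested member with a negative value, and its value stayed between -2.13 and -1.51 whichever mouse was left out.

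**Figure D3:**
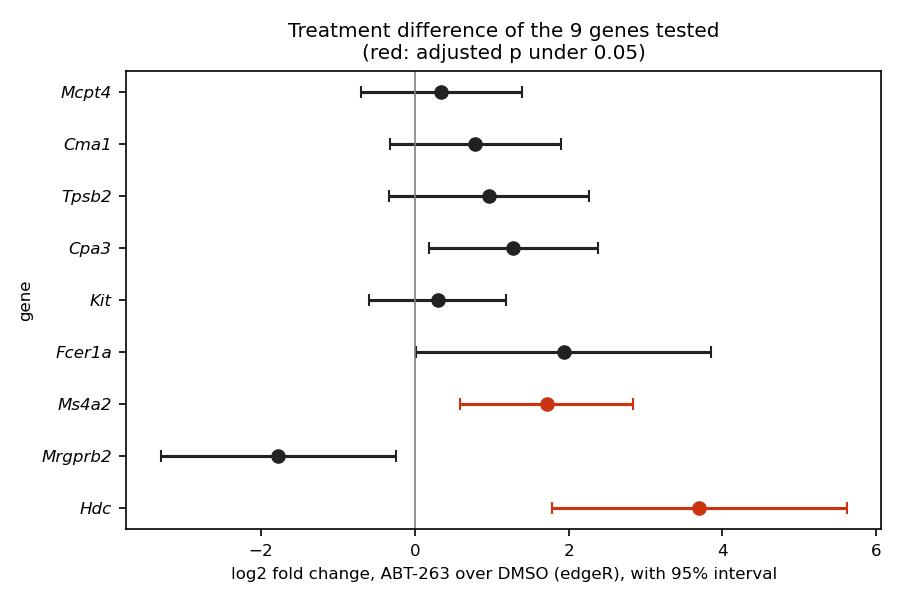
Log2 fold change of ABT-263 over DMSO for the 9 tested mast cell genes by edgeR, with bars for the 95% interval and called genes in red. Hdc (3.70) and Ms4a2 (1.72) passed the threshold, and Ms4a2 was kept by the expression filter through the ABT-263 libraries. Mrgprb2 (-1.78) is the only tested member below 0, and the intervals of Cma1, Mcpt4, Tpsb2 and Kit cross 0.

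Hdc, the decarboxylase that makes histamine from histidine, had the greatest difference of the 10 genes. It was at 8.388, 5.098, 5.595 and 12.04 CPM in DMSO mice and at 231.2, 55.8 and 17.03 CPM in ABT-263 mice. The lowest treated mouse was above the highest control, but the treated mice ranged widely among themselves. The means were 7.78 ± 3.19 (SD, n = 4) and 101 ± 114 CPM (SD, n = 3), a 13.0-fold difference (log2 fold change 3.70, SE 0.82, 95% interval 1.78 to 5.62, edgeR adjusted p = 0.0213; exact permutation p = 0.0286). Without mouse 476 the log2 fold change was 2.23 and still passed (adjusted p = 0.0425). Without DMSO mouse 482 the call was lost at a value of 3.57 (adjusted p = 0.0558), and it held without each of the other 6 mice. The ratio of Hdc to Cpa3 counts was 1.02, 1.51, 1.79 and 3.26 in DMSO mice and 12.9, 10.4 and 1.63 in ABT-263 mice, so that mouse 478 fell within the control range. The difference in mean log2 ratio was 1.80 with an exact permutation p of 0.171.

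Hdc is also induced in neutrophils and other myeloid cells, and 8 genes of neutrophils were followed beside it. Csf3r, the receptor for the neutrophil growth factor G-CSF, was at 3.724, 1.348, 1.745 and 3.245 CPM in DMSO mice and at 77.98, 12.43 and 10.65 CPM in ABT-263 mice (log2 fold change 3.73, edgeR adjusted p = 0.0176). None of the treated mice overlapped a control for Csf3r. The call was lost without DMSO mouse 482 (adjusted p = 0.0506). S100a8, a subunit of calprotectin that activated keratinocytes also make, rose by a log2 fold change of 2.98 (adjusted p = 0.0209), a call lost without mouse 483, 476 or 478. Retnlg, a resistin-like gene of neutrophils, was at 0.4092, 0.08427, 0.308 and 1.027 CPM in DMSO mice and at 232.2, 2.092 and 3.029 CPM in ABT-263 mice. Its log2 fold change of 7.40 (edgeR adjusted p = 0.0367) was carried by mouse 476, without which it was 2.47 and did not pass. Retnlg was kept by the filter through the ABT-263 libraries, as 2 of the 4 DMSO libraries reached the cutoff. Of the 8 neutrophil genes followed, 4 could be tested and 3 passed upward by edgeR, beside 12.4% of all genes tested. The number passing was 1 without mouse 482, 483 or 476 and 0 with no filter beyond a single count. The summed level of the 8 genes, 99.1 to 1808 CPM in DMSO and 5084 to 8271 CPM in ABT-263 mice, was mostly S100a8 and its partner S100a9. The other 6 genes summed to 4.378, 1.77, 2.874 and 5.916 CPM in DMSO mice and to 343.7, 15.0 and 14.31 CPM in ABT-263 mice. Ly6g and Ngp, which define mature and developing neutrophils, reached 13.98 and 14.69 CPM in mouse 476 and at most 0.253 CPM in any other mouse. Camp was at 4.576, 0.1008 and 0.2578 CPM in mice 476, 477 and 478, and at most 1.109 CPM in DMSO mice. Mpo had a mean of 0.314 CPM in DMSO and 0.215 CPM in ABT-263 mice. The part of neutrophils in the Hdc values was not tested.

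**Figure D4:**
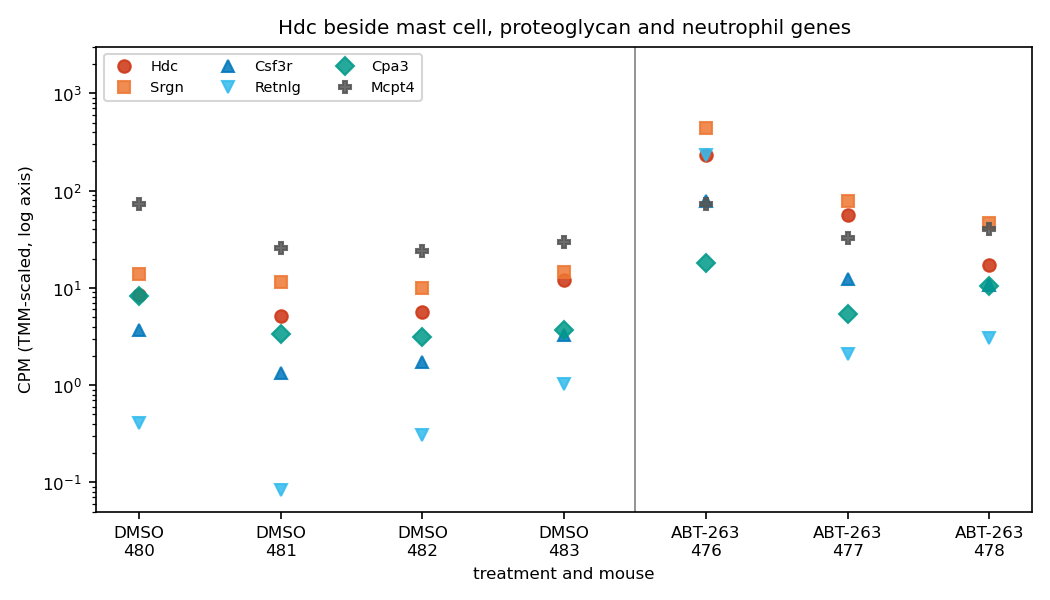
Level of Hdc, the granule proteoglycan gene Srgn, the neutrophil genes Csf3r and Retnlg and the mast cell genes Cpa3 and Mcpt4, in TMM-scaled CPM on a log axis, with 1 marker per gene in each of the 4 DMSO and 3 ABT-263 mice on the horizontal axis. Hdc, Srgn, Csf3r and Retnlg separate the groups, with mouse 476 highest, and Retnlg was kept by the expression filter through the ABT-263 libraries. For Cpa3 and Mcpt4 the control mouse 480 lies above at least 1 treated mouse. Of the neutrophil genes followed but not shown, S100a8 and S100a9 also separate the groups, and Ly6g, Ngp, Camp and Mpo overlap. The part of neutrophils in the Hdc values was not tested.

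Of the other 8 genes for the handling and sensing of histamine, 5 could be tested and 1 passed, Hrh2, the H2 receptor (log2 fold change 2.69, edgeR adjusted p = 0.0326), also from low levels of 0.257 to 0.801 CPM in DMSO and 1.26 to 7.19 CPM in ABT-263 mice. Hrh2 reached the filter cutoff in 2 of the 4 DMSO and all 3 ABT-263 libraries, so that it too was kept through the group in which it was higher. Its call was lost without 480, 481, 482, 483 or 476, with a log2 fold change of 1.37 without 476. Hnmt, which inactivates histamine by methylation, had a log2 fold change of 0.59 that did not pass (adjusted p = 0.243). Slc18a2, the vesicular transporter that loads histamine into granules, was at 0.411 ± 0.182 CPM (SD, n = 4) and 0.537 ± 0.371 CPM (SD, n = 3). The H1 receptor gene Hrh1, at 2.65 ± 0.704 and 3.65 ± 0.659 CPM, did not pass either.

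A longer list of 24 further genes used by mast cells, many of them shared with other cells, held 17 tested genes. Of these, 4 were higher and none lower by edgeR, beside 12.4% and 11.7% of all genes tested. The median log2 fold change of the 17 was 0.88. Srgn, which encodes the serglycin core of the granule matrix and is abundant in many blood cells, rose from 14.04, 11.46, 10.01 and 14.58 CPM in DMSO mice to 437.6, 78.77 and 46.46 CPM in ABT-263 mice (log2 fold change 3.90, edgeR adjusted p = 0.0135). None of the treated mice overlapped a control for Srgn. Ndst2, the sulfotransferase needed for granule heparin, rose by 0.93 (adjusted p = 0.00871). Ctsc, the protease that activates chymases and neutrophil elastase, rose by 2.01 (adjusted p = 0.0114), and Alox5, the first enzyme of leukotriene synthesis, rose by 1.03 (adjusted p = 0.0134). The lineage factors Gata2 and Mitf had log2 fold changes of 0.24 and 0.45 that did not pass (adjusted p = 0.489 and 0.194). Il1rl1, the receptor for interleukin-33, was at 3.45 ± 3.32 CPM (SD, n = 4) in DMSO and 7.91 ± 9.19 CPM (SD, n = 3) in ABT-263 mice (log2 fold change 1.18, adjusted p = 0.395). The protease genes typical of mucosal mast cells were close to absent in both groups: Mcpt1 had at most 3 counts in any library and Mcpt2 had none.

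Of 16 genes for signalling downstream of the IgE receptor, 6 were higher and 1 lower by edgeR, beside 12.4% and 11.7% of all genes tested. The median log2 fold change of the 16 was 0.88. The kinase genes Fyn (0.72, adjusted p = 0.00942) and Lyn (2.15, adjusted p = 0.0281) and the adaptor gene Gab2 (1.05, adjusted p = 0.0133) rose by edgeR. Orai1, the pore of the store-operated calcium channel, fell by 0.69 on the log2 scale (adjusted p = 0.0189). These genes are shared with other leukocytes, and Orai1 with most cell types. Leaving out 1 mouse at a time left 2 to 5 of them higher. The call of Lyn was lost without any 1 of the 4 DMSO mice and that of Orai1 without 482, 477 or 478, while Fyn and Gab2 passed in all 7 such fits.

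Among the genes for factors that mast cells respond to or make, Il33 and Kitl are described. Il33, the alarmin released by damaged epithelium and stroma that signals through Il1rl1, was at 40.43, 14.37, 22.48 and 22.59 CPM in DMSO mice and at 122.6, 95.73 and 104.4 CPM in ABT-263 mice. All treated mice were above the highest control, which was again mouse 480 (log2 fold change 2.11, edgeR adjusted p = 0.00726). Kitl, which encodes stem cell factor, had a log2 fold change of 0.32 that did not pass (adjusted p = 0.260).

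Basophils share the IgE receptor and Hdc with mast cells. Their own proteases were at no more than 0.450 CPM in any mouse other than 476. Mcpt8 had 0, 2, 2 and 0 counts in DMSO mice and 91, 10 and 1 counts in ABT-263 mice, the first being 3.25 CPM in mouse 476. Prss34 had 11, 1, 1 and 4 counts in DMSO mice and 23, 10 and 4 counts in ABT-263 mice. Neither reached the count minimum. Cd200r3, another basophil gene followed, was tested and had a log2 fold change of 1.49 that did not pass (edgeR adjusted p = 0.128). Mouse 476, which had the most Mcpt8, also had the highest level of 8 of the 10 mast cell genes, among them Fcer1a and Ms4a2, and the part of basophils in those values was not tested.

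Levels were also set against the joined length of all annotated exons of a gene (CPM per kilobase of exon). By this measure the first 3 members were the same in both groups, and the order below them differed. The joined length can exceed that of any single transcript. It was 8911 bases for Kit and 6389 for Hdc, whose longest transcripts held 5192 and 4469 different stretches of 50 bases. The places of these genes therefore depend on the length used. In DMSO skin Mcpt4 led at 34.4 ± 21.1 (SD, n = 4), ahead of Cma1 at 17.8 ± 11.1 and Tpsb2 at 11.7 ± 7.32. Cpa3 followed at 3.04 ± 1.61, Hdc at 1.22 ± 0.499, Mrgprb2 at 1.17 ± 0.681, Fcer1a at 0.679 ± 0.613 and Kit at 0.477 ± 0.175, with Tpsab1 and Ms4a2 at no more than 0.161 CPM per kilobase in any control. Neighbours among the 3 leading proteases, and among Hdc, Mrgprb2, Fcer1a and Kit, had overlapping ranges. Within each mouse of both groups, however, the order Mcpt4, Cma1, Tpsb2 held. Cpa3 overlapped neither Tpsb2 above it nor Hdc below it. Its lowest value was 2.06 and the highest of Hdc 1.88, a gap that depends on the length used. In ABT-263 skin the first 3 places were the same, at 43.8 ± 19.1, 30.7 ± 15.4 and 23.0 ± 16.5 CPM per kilobase (SD, n = 3). Hdc followed Tpsb2 at 15.9 ± 17.9, with a range from 2.67 to 36.2 that overlapped those of its neighbours Tpsb2 and Cpa3. Compared within each ABT-263 mouse, Hdc was below Tpsb2 in all of them and below Cpa3 in mouse 478 only. Mrgprb2, at 0.339 ± 0.118, ranked below Fcer1a at 2.66 ± 2.59 and Kit at 0.590 ± 0.276.

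The mean profile of the 9 tested members over the 7 mice, as log2 CPM centred on each gene's mean, was -0.02, -0.45, -0.82 and -0.35 in DMSO mice 480 to 483 and 1.45, -0.08 and 0.27 in ABT-263 mice 476 to 478. Cpa3, Cma1 and Tpsb2 lay nearest to it, with root mean square differences of 0.33, 0.35 and 0.38 on the log2 scale, and Hdc (1.30) and Mrgprb2 (1.65) farthest. The 5 other genes nearest to the profile were Dtx3l, Tnip1, S1pr3, Rin3 and Best1, with differences of 0.15 to 0.16 over the 7 mice. Each member is part of the mean it was compared with, and these 5 genes lay nearer to the profile than any member. Nearness to it is therefore no mark of a mast cell gene. Mouse 476 lay farthest from 0 in the profile, and the likeness is a description of these 7 libraries.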

How the data were processed

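RNA from dorsal skin was sequenced in paired-end libraries; the labels and the study's methods name different extraction kits. The authors aligned reads to mm10 with STAR 2.7.9a and deposited raw counts per gene from featureCounts (Subread 1.6.2) for uniquely aligned, non-mitochondrial pairs, and variance-stabilized log2 values from DESeq2 1.23.10, used here only as an alternative. Gene symbols, positions and exon lengths came from GENCODE M21 (GRCm38), which matched 55190 of 55450 identifiers, and promoter sequences from RefSeq.

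Counts were scaled by TMM and filtered by filterByExpr (count minimum 10), which kept 17959 genes. They were fitted without covariates, since the labels name no batch, by edgeR 4.0.16 (glmQLFit, robust; R 4.3.3; two-sided, adjusted p under 0.05), checked on simulated counts. Intervals are 95% intervals from the fit. Single values were compared by exact two-sided permutation over mice, on log2(CPM + 0.1) for genes. Alternatives used DESeq2 1.42.0 (outlier flagging and independent filtering off), limma 3.58.1 and mgcv 1.9.3, other filters, thinning and leaving out each mouse.

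The members, gene lists and tests were chosen with earlier results of these data known. All members were named; from the other lists, up to 3 genes per direction with the smallest p past the threshold and 10 preset genes (Kitl, Il33, Il1rl1, Gata2, Mitf, Srgn, Fcer1g, Mcpt8, Prss34, Hnmt) were named, and the 5 genes nearest the members' mean profile. Cell type marker genes, Slc18a2, Hrh1, Mcpt1 and Mcpt2 were named outside this rule, after their values were seen. One gene that the rule names is not reported here. Depth limits genes under about 10 counts, and intervals cover the spread between these mice.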

Additional observations from a re-analysis of the deposited data

Results flagged for a closer look

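In the DMSO group, 3 of the 28 sets of 4 values examined for a sample far from the others exceeded Dixon's 95% critical value, where chance alone exceeds it in about 1 of 20 (1.4 of 28). All 3 were granule proteases in mouse 480. For Cma1 the ratio of gap to range was 0.925, with mouse 480 at 37.48 CPM and the next control at 14.5 CPM. For Mcpt4 it was 0.894, with 73.08 CPM against 29.37 CPM, and for Cpa3 it was 0.890, with 8.266 CPM against 3.697 CPM. These genes share their libraries, so the 3 are not independent.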

How the results depend on the processing

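The 2 higher calls among the mast cell genes numbered 0 with no filter beyond a single count (Hdc adjusted p = 0.0780, Ms4a2 0.0676) and 1 when 10 counts were asked of every library, a filter that left 7 members. By DESeq2, 3 were higher and 1 was lower. Other size factors, protein-coding genes only, thinning to the smallest library, removal of length and GC trends, and the authors' stabilized values with limma each gave 2 higher and 0 lower. Leaving out each mouse gave 0 to 3 higher (0 without 482), 0 to 1 lower, and a median log2 fold change from 0.3183 (without 476) to 1.501 (without 480). The log2 fold changes that turned over did so without mouse 476: Mcpt4 ranged from -0.05503 to 0.8723 and Kit from -0.1407 to 0.5443. The difference in log2 ratio ranged from 0.3629 to 0.4845 for Cma1 to Mcpt4, from 1.251 to 2.744 for Hdc to Cpa3, and from -1.024 to 0.4641 for Tpsb2 to Tpsab1, where 2 added counts in place of 0.5 also turned it, to 0.215. The causes of these shifts were not tested. Over all genes, the number called was 4342, and 5985 by DESeq2, 3388 with no such filter, and as few as 1735 without mouse 478. No paired analysis was possible because the groups share no replicate numbers. Depth limits Tpsab1, Ms4a2 and Fcer1a, whose DMSO libraries held as few as 0 or 3 counts.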
